A study of Homo sapiens with 12 samples.

Results

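Homologous recombination repair, the Fanconi pathway and the damage checkpoint were followed through 37 genes chosen by name and matched by symbol to the Ensembl identifiers of the count tables. All 37 were found among the 40649 genes of the tables, and all 37 passed the filter on low counts that left 19268 genes for testing, with 87 counts as the lowest value of any of them in a library. Homologous recombination rebuilds a broken chromosome from its sister copy. The broken end is trimmed to single strands, the strands are paired with the sister copy with the help of BRCA2 and its partners, and the joined molecules are then unwound or cut apart. The Fanconi pathway acts where the strands are cross-linked: its core complex puts ubiquitin on FANCD2 and FANCI, which brings in nucleases. The kinases ATM and ATR sense breaks and stalled forks and halt the cell cycle through CHEK2 and CHEK1. Many of these genes are read mainly in cells that copy their DNA, and in kidney tubules DNA damage and cell cycle arrest are known parts of the response to injury.

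Polyadenylated RNA was sequenced from HK-2, an immortalised line of human proximal tubule cells, in 12 libraries, 4 in each of 3 groups. The ShNC group carried the control hairpin and was labelled as control for treatment. The H2O2 group carried the same control hairpin and was given the oxidant hydrogen peroxide at 150 µM for 48 h, and the YH group was labelled Yap1 knockdown and was given the same oxidant. All groups shared the cell line and a hairpin, so no group was free of both, and knockdown cells without the oxidant were not analysed here. The effect of the knockdown alone and its interaction with the oxidant could therefore not be estimated. The hairpin sequence and the number of clones are not given in the labels, and the extraction text speaks of kidney tissue where the other labels name the cell line. Whether replicates were separate cultures is not stated in the labels. The p-values therefore speak of the spread among these 12 libraries, which may be technical.

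Total counts ran from 30789997 to 46582873 per library. Levels are given as CPM, counts scaled to a common library total with factors from the trimmed mean of M values (TMM). A floor of 3 counts comes to 0.0644 to 0.0974 CPM before those factors. Mitochondrially encoded genes held 13.9% of the counts in ShNC replicate 4 and 11.3% in YH replicate 3, against 4.54% to 5.64% in the other 10 libraries. Calls that change without these libraries are given both ways. YAP1, the targeted gene, stood at 135.9, 130.3, 140.5 and 123.7 CPM in the ShNC libraries, 155.2, 151.1, 155.6 and 163.5 in the H2O2 libraries and 131.3, 134.7, 110.9 and 135.9 in the YH libraries. It was thus lower in YH than in H2O2 (log2 fold change -0.29 ± 0.07, edgeR adjusted p = 0.00346), but not detectably different from untreated ShNC (-0.05 ± 0.07, edgeR adjusted p = 0.636), so the libraries labelled YH are called by that label here. Of the proximal tubule markers, LRP2, CUBN, HNF4A, ANPEP and AQP1 stayed under 1 CPM in every group, while PAX8, KRT8, KRT18 and CDH6 were present. Summed endothelial markers reached at most 0.481 CPM and summed leukocyte markers at most 2.20 CPM. The 7 fibroblast markers, mostly LUM, summed to 111 to 113 CPM in ShNC, 236 to 255 in H2O2 and 144 to 172 in YH, whereas PDGFRA and COL3A1 were at or near 0. Their part in the results below was not tested.

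The sum over the 37 genes was lower in H2O2 than in ShNC and lower again in YH. It was 1703, 1681, 1686 and 1753 CPM in the ShNC libraries, 1630, 1600.5, 1585 and 1618 in the H2O2 libraries and 1533, 1489, 1531 and 1524 in the YH libraries. No library of one group reached into the range of another. The sum was not tested, and it hides opposite movements of single genes. Most of the step from ShNC to H2O2 (mean 1706 to 1608 CPM) came from TOPBP1 (157 to 105) and ATR (60.6 to 43.7). With both left out, the sum in H2O2 replicate 1 stood above those in ShNC replicates 2 and 3. The separation of ShNC from H2O2 thus rested on TOPBP1 and ATR, while YH stayed lowest without them. The falls of TOPBP1 and ATR were not kept relative to the tested genes nearest to them on their chromosome. Differential expression was tested for every gene with the quasi-likelihood test of edgeR, and a gene was called at a Benjamini-Hochberg adjusted p under 0.05 over all tested genes. Values after ± are SD (n = 4) for levels and SE for log2 fold changes. In bulk RNA, fewer cells of a kind and less RNA per cell cannot be told apart.

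With H2O2 in control-hairpin cells, 6 of the 37 genes rose and 11 fell, or 45.9%, where 46.6% of all tested genes were called in this comparison (23.9% higher and 22.6% lower). Their median log2 fold change was -0.09, against 0.00 over all tested genes. Between YH and H2O2, 6 were higher and 15 lower in YH, or 56.8%, against 43.0% of all tested genes (22% higher and 21.0% lower), and the median was -0.11 against 0.00. Between YH and ShNC, 1 was higher and 15 lower, or 43.2%, against 32.5% of all tested genes, and the median was -0.16 against 0.00. In that comparison 15.1% of all tested genes were called lower and 17.4% higher. Counts for the small groups of genes below stand against these same shares. The first and the second comparison share the H2O2 libraries, the first and the third the ShNC libraries, and the second and the third the YH libraries, so their values are given side by side and not as independent evidence. With all 12 libraries no member changed 2-fold or more in any comparison, and 5, 4 and 3 of them moved by at least 0.5 on the log2 scale. From ShNC to YH, H2AX passed 2-fold without both libraries of high mitochondrial share (-1.03), as did FANCE without ShNC replicate 1 (1.02), ShNC replicate 3 (1.01) or YH replicate 3 (1.08).

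**Figure D1:**
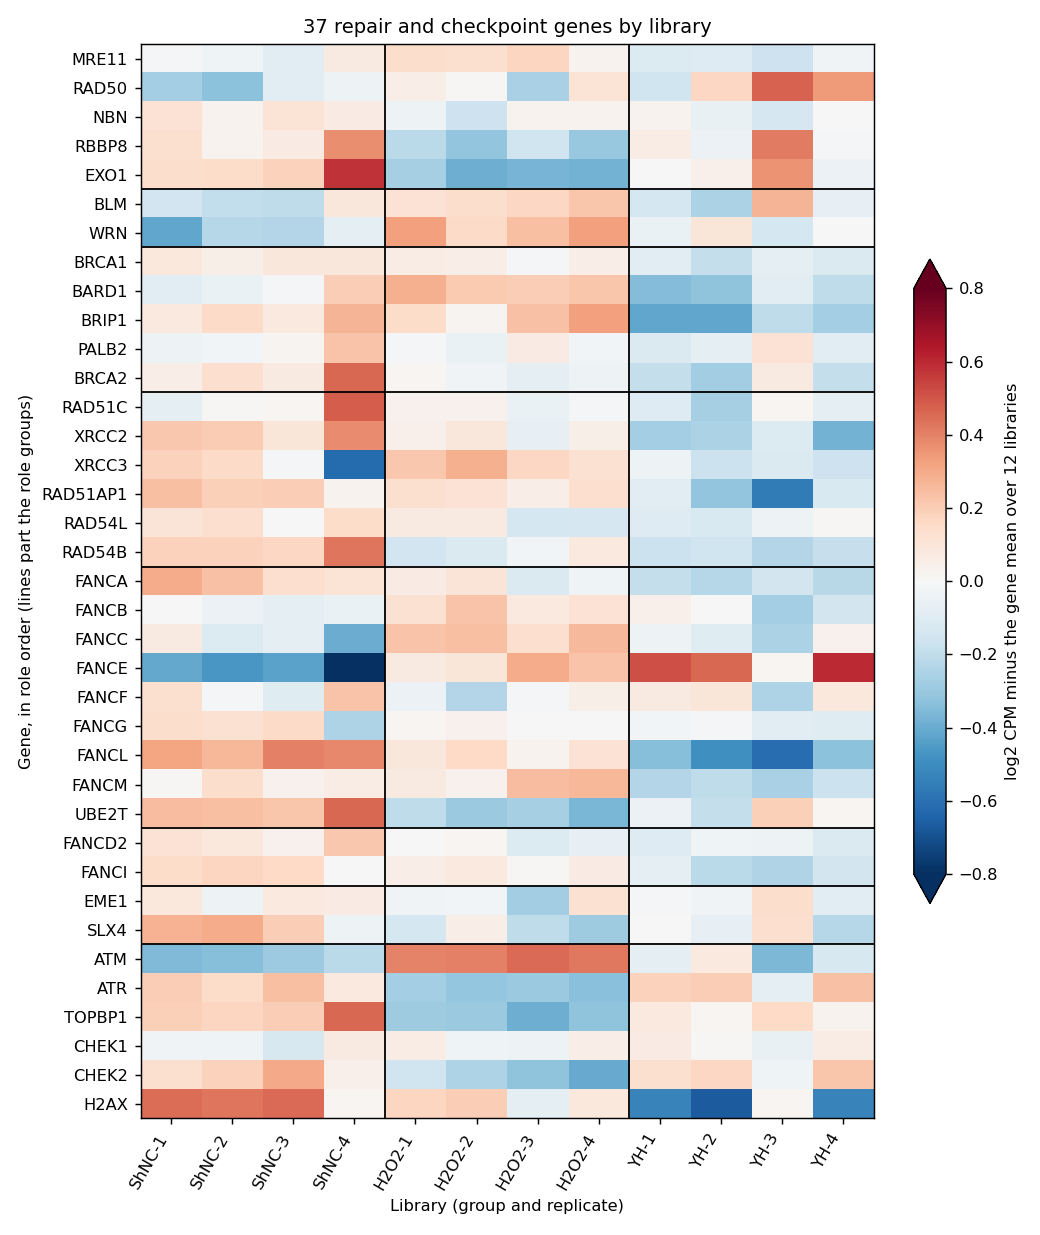
Level of each of the 37 genes (rows, in role order) in each of the 12 libraries (columns), as log2 CPM minus the mean of that gene over all libraries. FANCE is low in ShNC and high in YH, FANCL and H2AX run the other way apart from ShNC replicate 4 and YH replicate 3 for H2AX, and ATM is high in the 4 H2O2 libraries alone.

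Libraries of 2 groups did not overlap for 19 of the 37 genes between H2O2 and ShNC (7 higher, 12 lower), where 48.0% of all tested genes did not overlap. The count was 23 between YH and H2O2 (6 higher, 17 lower; 45.2% of all tested genes) and 15 between YH and ShNC (1 higher, 14 lower; 29.7% of all tested genes). Without ShNC replicate 4 and YH replicate 3, 8 rose and 17 fell with H2O2, 7 were higher and 19 lower in YH than in H2O2, and 3 were higher and 20 lower in YH than in ShNC. In those fits 59.4%, 57.3% and 46.8% of all tested genes were called. Leaving them out added 8, 5 and 7 calls among the 37 and ended 0. With H2O2 the added calls were MRE11 (0.15, edgeR adjusted p = 0.00274), NBN (-0.13, 0.00850), BRCA2 (-0.13, 0.0446), FANCB (0.17, 0.0345), FANCG (-0.13, 0.0184), FANCD2 (-0.12, 0.0246), FANCI (-0.11, 0.00766) and H2AX. From H2O2 to YH they were BLM (-0.31, edgeR adjusted p = 9.43e-05), BRCA2 (-0.19, 0.00344), RAD51C (-0.15, 0.0203), XRCC3 (-0.32, 2.47e-05) and FANCE. From ShNC to YH they were XRCC3 (-0.24, edgeR adjusted p = 0.00214), RAD54L (-0.16, 0.0442), FANCG (-0.19, 0.00277), SLX4 (-0.36, 0.00033), EXO1, WRN and ATM. Values not given here stand with each gene below.

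**Figure D2:**
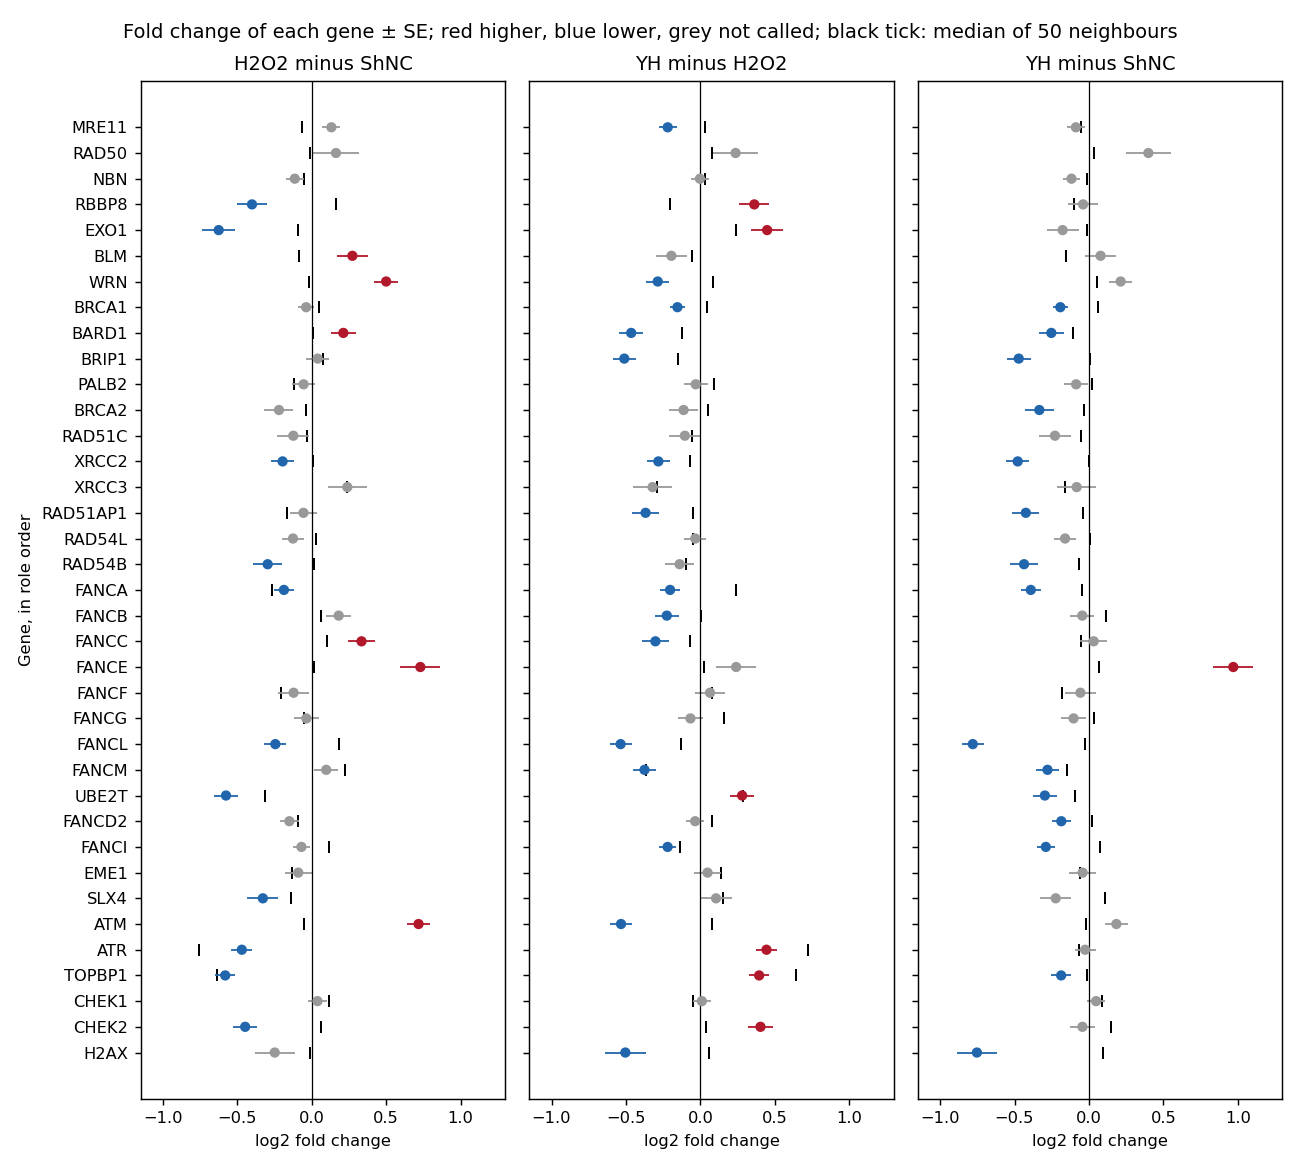
log2 fold change ± SE of each gene in the 3 comparisons (red called higher, blue called lower, grey not called), with a black tick at the median of the 50 tested genes nearest to it on its chromosome. In the right panel FANCE is the 1 red point, at 0.97, and FANCL (-0.78) and H2AX (-0.75) are the lowest points.

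Promoter sequence is shown here for 10 of the genes that the results below describe in full, picked after their values were seen. Most of them have a match to the E2F core near the start, and E2F factors are known to switch on genes of DNA synthesis and repair when cells enter S phase. BLM, BARD1, XRCC3, FANCF, FANCA, FANCC and RAD54L also have a core between 70 bases before and 30 after the start and are not shown. RefSeq start sites (GRCh38.p14) with 250 bases before and 50 after the start were found for 33 of the 37. Only the first listed start of a gene was searched, so a match at another start would be missed. NBN, WRN, RAD54B and FANCI had no entry. The stretches below run from 70 bases before the start to 30 after it, 5′ to 3′ on the strand of the gene, so that they hold the end of the promoter and the beginning of the first exon. Capitals mark the E2F core (TTNNCGC on either strand, with C or G at each N), the cell cycle homology region letters TTTGAA in ATM and the TATA box letters TATAAA in H2AX. The plus-strand stretches are EXO1 at chr1:241848134-241848233, RAD51AP1 at chr12:4538820-4538919, FANCD2 at chr3:10026367-10026466, FANCE at chr6:35452268-35452367 and ATM at chr11:108222997-108223096. The minus-strand stretches are BRIP1 at chr17:61863499-61863598, XRCC2 at chr7:152676112-152676211, TOPBP1 at chr3:133661912-133662011, FANCL at chr2:58241296-58241395 and H2AX at chr11:119095436-119095535.
EXO1: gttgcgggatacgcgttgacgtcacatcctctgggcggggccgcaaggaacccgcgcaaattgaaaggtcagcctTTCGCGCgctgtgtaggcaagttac
RAD51AP1: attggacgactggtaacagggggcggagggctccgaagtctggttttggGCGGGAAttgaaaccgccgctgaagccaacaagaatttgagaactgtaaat
FANCD2: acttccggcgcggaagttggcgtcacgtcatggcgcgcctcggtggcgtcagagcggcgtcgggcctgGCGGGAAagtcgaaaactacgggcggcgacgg
BRIP1: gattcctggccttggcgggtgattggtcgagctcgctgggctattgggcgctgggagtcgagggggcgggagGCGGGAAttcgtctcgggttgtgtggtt
XRCC2: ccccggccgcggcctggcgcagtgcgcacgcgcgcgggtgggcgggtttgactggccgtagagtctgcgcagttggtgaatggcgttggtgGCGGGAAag
TOPBP1: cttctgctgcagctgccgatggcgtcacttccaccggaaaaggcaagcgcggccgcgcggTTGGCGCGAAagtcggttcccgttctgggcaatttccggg
FANCE: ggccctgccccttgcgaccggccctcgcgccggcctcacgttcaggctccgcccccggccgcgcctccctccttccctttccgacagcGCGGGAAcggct
FANCL: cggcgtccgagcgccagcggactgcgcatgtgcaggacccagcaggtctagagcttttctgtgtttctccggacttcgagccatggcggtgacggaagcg
ATM: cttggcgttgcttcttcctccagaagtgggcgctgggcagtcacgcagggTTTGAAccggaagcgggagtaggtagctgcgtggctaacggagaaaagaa
H2AX: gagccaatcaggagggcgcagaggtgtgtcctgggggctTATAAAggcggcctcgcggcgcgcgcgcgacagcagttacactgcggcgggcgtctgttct

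An E2F core lay in 17 of the 33 windows (51.5%), against 13.1% of the 27305 RefSeq windows of the same length. Those 27305 windows were neither limited to tested genes nor matched in base composition, and what the gap owes to either was not tested. The longer forms with a further T in front (TTTCCCGC, TTTGGCGC, TTTCGCGC and TTTGCCGC) lay in 6 of 33 (18.2%), against 3.33% of all windows. Every longer form holds the core, so the counts are not separate. In EXO1 the core lay just after the start on the strand of the gene, and in BRIP1, FANCE and XRCC2 after the start on the opposite strand. In FANCD2 it lay across the start, in RAD51AP1 before it, and in TOPBP1 a core on each strand overlapped just before the start. In FANCL the core lay 99 bases before the start, outside the stretch shown. The CCAAT box (CCAAT) was in 15 windows (45.5%, against 35.7%), TTTGAA in 5 (15.2%, against 15.4%) and the TEAD core GGAATG, the letters read by the partners of YAP1, in 4 (12.1%, against 14.1%). The NRF2 letters TGACNNNGC were in 2 (6.06%, against 13.6%), the AP-1 letters TGANTCA in 0 (against 7.76%) and TATAAA in H2AX alone (3.03%, against 12%). These matches are letters in a window on either strand and not measured binding. Of the 17 genes with an E2F core, 4 rose and 5 fell with H2O2, 2 were higher and 7 lower in YH than in H2O2, and 1 was higher and 8 lower in YH than in ShNC. Of the 16 without one, the counts were 1 and 5, 4 and 6, and 0 and 5. The median log2 fold change with H2O2 was the same to 2 decimals, -0.09 with a core and -0.09 without. From H2O2 to YH it was -0.19 with a core and -0.07 without, and from ShNC to YH -0.18 and -0.09. Whether genes with and without a core differ was not tested.

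Levels of different genes were compared per kilobase of exon, among the 32 genes of which no more than 20% of the exon bases lie in another gene. H2AX, the histone variant that is phosphorylated around breaks, and UBE2T, the ubiquitin-conjugating enzyme of the Fanconi pathway, led in ShNC with 40.2 and 36.2 CPM per kb. NBN followed at 24.9 and TOPBP1 at 21.5. The long genes BRCA2 (2.47), SLX4 (2.23) and FANCM (1.80) stood lowest. H2AX is given 40.2, 33.8 and 23.9 CPM per kb and UBE2T 36.2, 24.3 and 29.5 in the ShNC, H2O2 and YH groups. Oligo(dT) selection can lose histone transcripts without a tail, and H2AX is read in both tailed and untailed forms. The remaining 5 are uncertain, because the strand setting of the counting is not given in the sources used here and reads of overlapping genes cannot be told apart. They are RAD50, where 79.7% of the exon bases are shared, XRCC3 (76.7%, KLC1), RAD54B (59.1%, FSBP), RAD54L (25.1%, LRRC41) and FANCA (23.6%, ZNF276). CHEK2 and FANCD2 have pseudogene copies that can take reads from them.

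Among the checkpoint genes, ATM rose with H2O2 while ATR, its activator TOPBP1 and CHEK2 fell, and each of these moved the opposite way between H2O2 and YH. The directions of ATR and TOPBP1 were not kept relative to their chromosomal neighbours. ATM (ENSG00000149311, chr11:108222484-108369102), the kinase that answers to double-strand breaks, stood at 67.5, 68.1, 70.3 and 74.2 CPM in the ShNC libraries, 113, 114, 118 and 115 in the H2O2 libraries and 81.6, 90.7, 67.1 and 78.7 in the YH libraries. Every H2O2 library lay above every other library, and the ShNC and YH libraries overlapped because of YH replicate 3. ATM was 1.64-fold higher in H2O2 than in ShNC (log2 0.72 ± 0.08, edgeR adjusted p = 1.5e-06) and lower in YH than in H2O2 (-0.53 ± 0.08, edgeR adjusted p = 4.15e-05). The change from ShNC to YH was 0.18 ± 0.08 (edgeR adjusted p = 0.0798), and without both libraries of high mitochondrial share it was 0.28 (adjusted p = 3.84e-06). Leaving out ShNC replicate 4 alone (adjusted p = 0.0413) or YH replicate 3 alone (adjusted p = 0.00284) also made that call.

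ATR (ENSG00000175054, chr3:142449235-142578826), the kinase that answers to single-stranded DNA at stalled forks, gave 61.9, 59.7, 63.9 and 56.9 CPM in the ShNC libraries, 44.8, 43.5, 43.9 and 42.8 in the H2O2 libraries and 61.4, 61.8, 51.3 and 63.6 in the YH libraries. The H2O2 libraries lay below all others, and the ShNC and YH libraries overlapped. Its log2 fold change was -0.47 ± 0.07 with H2O2 (edgeR adjusted p = 5.53e-05) and 0.44 ± 0.07 from H2O2 to YH (adjusted p = 0.000118), and both directions turned when the shift of the surrounding chromosome was removed. The 50 tested genes nearest to ATR had a median of -0.76 in the first comparison and 0.72 in the second. Relative to these neighbours ATR was higher with H2O2 (0.32, edgeR adjusted p = 0.00375) and lower in YH than in H2O2 (-0.21, adjusted p = 0.0424). From ShNC to YH it did not pass the test (-0.03 ± 0.07, adjusted p = 0.819).

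TOPBP1 (ENSG00000163781, chr3:133598175-133662380), the scaffold that switches on ATR and whose promoter letters are shown above, also lies on chromosome 3 and gave 149.8, 148, 150.3 and 180.2 CPM in the ShNC libraries, 108, 107, 100.1 and 105 in the H2O2 libraries and 139, 133, 147 and 134 in the YH libraries. All 3 groups were separate, with ShNC highest and H2O2 lowest, and ShNC replicate 4 stood above the other ShNC libraries. TOPBP1 fell with H2O2 by 0.58 ± 0.07 on the log2 scale (edgeR adjusted p = 4.42e-06) and was higher in YH than in H2O2 by 0.39 ± 0.07 (adjusted p = 0.000249), while its 50 neighbours had medians of -0.64 and 0.64. Relative to those neighbours the first change was 0.03 (edgeR adjusted p = 0.740) and the second turned to -0.23 (adjusted p = 0.00518). The difference between YH and ShNC (-0.19 ± 0.07, edgeR adjusted p = 0.0488) was lost in 10 of the 12 fits that left out 1 library, with adjusted p up to 0.125. Only the fits without ShNC replicate 2 or without YH replicate 3 kept it.

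CHEK2, the kinase below ATM, stood at 27.7, 28.8, 31.3 and 26.2 CPM in the ShNC libraries, 22.7, 21.4, 20.3 and 19.2 in the H2O2 libraries and 27.7, 28.4, 24.8 and 29.6 in the YH libraries. The H2O2 libraries were the lowest, and the ShNC and YH libraries overlapped. CHEK2 fell with H2O2 (-0.45 ± 0.08, edgeR adjusted p = 0.000339) and was higher in YH than in H2O2 (0.40 ± 0.08, adjusted p = 0.00094), with neighbours at 0.06 and 0.04. From ShNC to YH the value was -0.04 ± 0.08 (edgeR adjusted p = 0.726). CHEK1, the kinase below ATR, held 61.8 ± 3.49, 63.5 ± 2.41 and 63.9 ± 2.47 CPM in the 3 groups and passed no test, with log2 values of 0.04 ± 0.06, 0.01 ± 0.06 and 0.05 ± 0.06. H2AX gave 69.7, 68.6, 69.8 and 51.6 CPM in the ShNC libraries, 57.4, 58.6, 48.4 and 54.1 in the H2O2 libraries and 35.2, 32.2, 51.5 and 35.2 in the YH libraries. ShNC replicate 4 was far below the other ShNC libraries and YH replicate 3 far above the other YH libraries, and these are the libraries with the high mitochondrial share. H2AX was lower in YH than in H2O2 (-0.50 ± 0.14, edgeR adjusted p = 0.00765) and than in ShNC (-0.75 ± 0.14, adjusted p = 0.000646), whereas the change with H2O2 was -0.25 ± 0.14 (adjusted p = 0.147). Without both libraries the 3 values were -0.35 (H2O2 against ShNC), -0.68 (YH against H2O2) and -1.03 (YH against ShNC), and each passed the test (edgeR adjusted p = 3.64e-07, 1.72e-12 and 5.72e-16). Leaving out ShNC replicate 4 alone (adjusted p = 0.0393) or YH replicate 3 alone (adjusted p = 0.0360) was enough for the call with H2O2.

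**Figure D3:**
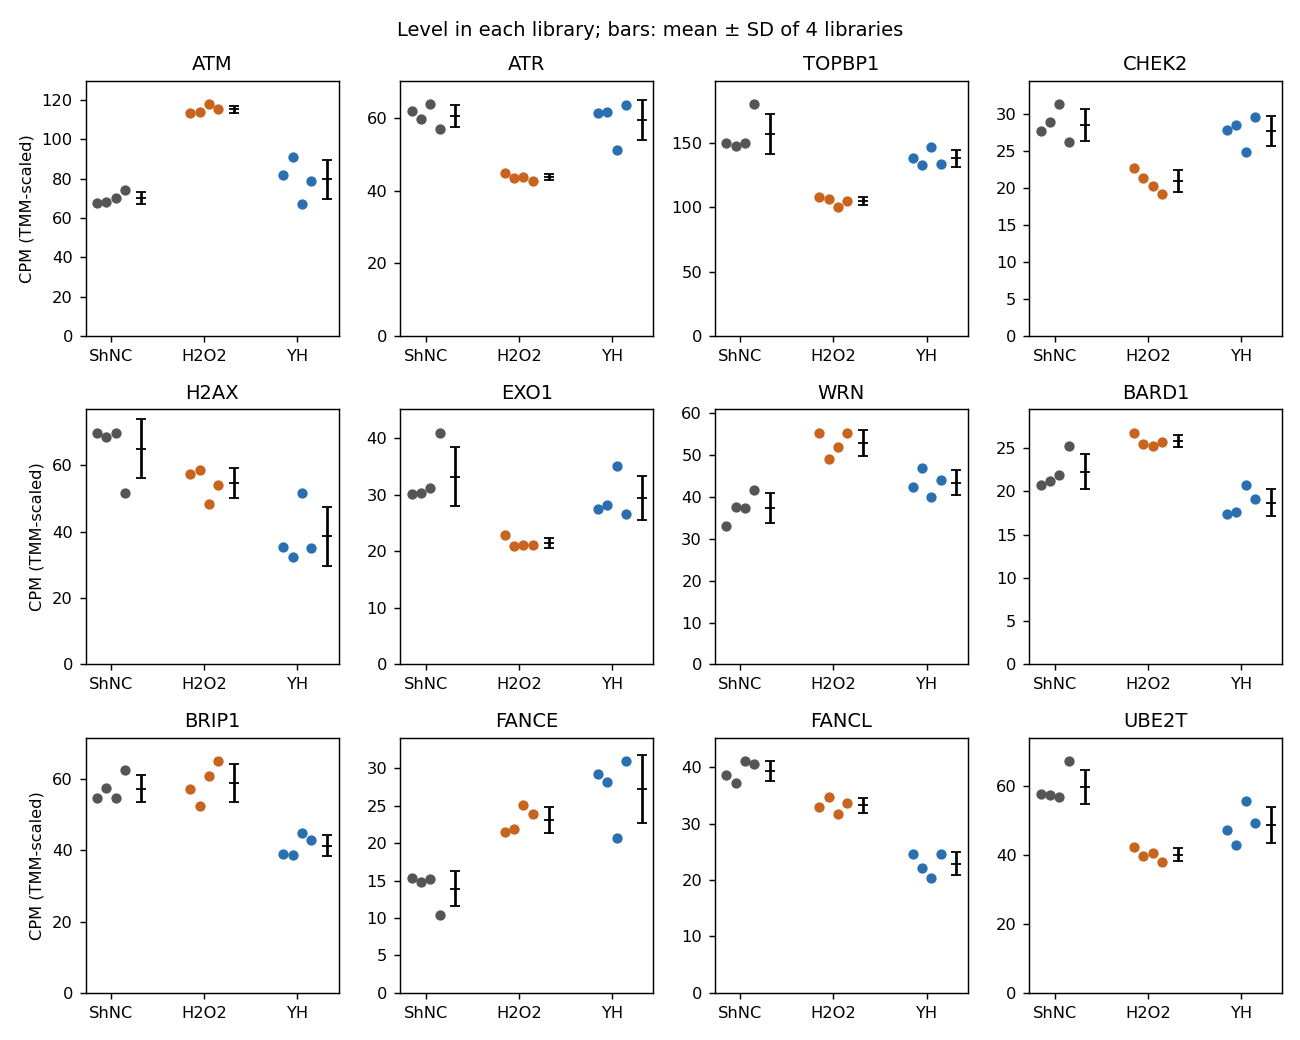
TMM-scaled CPM of 12 of the genes in each library (points, replicates 1 to 4 from left to right in each group) with the mean ± SD of the 4 libraries. ATM and WRN are highest in H2O2, ATR, TOPBP1, CHEK2, EXO1 and UBE2T are lowest there (for ATR and TOPBP1 the direction is not kept relative to chromosomal neighbours), FANCE is lowest in ShNC, and FANCL and BRIP1 are lowest in YH.

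In the group that trims and holds broken ends, the nuclease EXO1 and the resection factor RBBP8 fell with H2O2 and were higher again in YH, so 2 of 5 fell with H2O2, and 2 were higher and 1 lower in YH than in H2O2. Between YH and ShNC edgeR called 0 of 5, as did DESeq2, and 1 had an unadjusted p under 0.05. EXO1 (ENSG00000174371, chr1:241847967-241895148), which digests the end far into single strands, stood at 30.2, 30.3, 31.2 and 40.9 CPM in the ShNC libraries, 22.8, 20.9, 21.1 and 21.1 in the H2O2 libraries and 27.5, 28.2, 35.1 and 26.6 in the YH libraries. H2O2 libraries lay below all others, and ShNC replicate 4 and YH replicate 3 were the highest of their groups. The fall with H2O2 was -0.63 ± 0.11 (edgeR adjusted p = 0.000202) and the difference from H2O2 to YH was 0.45 ± 0.11 (adjusted p = 0.00349), which was 0.21 relative to the chromosomal neighbours and did not pass there (adjusted p = 0.112). Between YH and ShNC it was -0.18 ± 0.11 (edgeR adjusted p = 0.234), and -0.17 without both libraries of high mitochondrial share (adjusted p = 0.0173).

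RBBP8, the CtIP protein that starts resection, stood at 72.4, 67.6, 69.4 and 86 CPM in the ShNC libraries, 57.2, 53.3, 59.4 and 53.7 in the H2O2 libraries and 69.3, 64.2, 88.4 and 65.6 in the YH libraries. It again had its lowest 4 values in H2O2 and its highest in ShNC replicate 4 and YH replicate 3. The log2 values were -0.40 ± 0.10 with H2O2 (edgeR adjusted p = 0.00386), 0.36 ± 0.10 from H2O2 to YH (adjusted p = 0.00858) and -0.04 ± 0.10 from ShNC to YH (adjusted p = 0.803). Without both libraries the first was -0.33 and the second 0.25, and both were still called. MRE11, RAD50 and NBN form the complex that binds the end. MRE11, its nuclease, held 55.2 ± 2.6, 60.5 ± 2.56 and 51.9 ± 2.09 CPM in ShNC, H2O2 and YH and was lower in YH than in H2O2 (-0.22 ± 0.06, edgeR adjusted p = 0.00849), while the change with H2O2 was 0.13 ± 0.06 (adjusted p = 0.0892; 0.0263 without ShNC replicate 4). NBN, its regulatory subunit, held 153 ± 4.32, 141 ± 8.63 and 141 ± 7.12 CPM, with log2 values of -0.11, -0.00 and -0.12 and adjusted p of 0.135 or more. RAD50, its ATPase and one of the uncertain genes, held 2.92 ± 0.282, 3.27 ± 0.353 and 3.86 ± 0.694 CPM. Its largest difference, 0.40 ± 0.15 from ShNC to YH, had an edgeR adjusted p of 0.0551, and it was called without ShNC replicate 4 (adjusted p = 0.0409) or without YH replicate 1 (0.0180).

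Both RecQ helicases rose with H2O2, and between YH and ShNC edgeR called 0 of the 2, DESeq2 1, and 1 had an unadjusted p under 0.05. WRN, which unwinds joined and stalled structures, stood at 32.9, 37.5, 37.4 and 41.6 CPM in the ShNC libraries, 55.3, 48.9, 51.9 and 55.2 in the H2O2 libraries and 42.3, 47, 39.8 and 44.1 in the YH libraries. The H2O2 libraries were above all others, and YH lay between with some overlap with ShNC. WRN rose by 0.50 ± 0.08 (edgeR adjusted p = 8.41e-05) and was lower in YH than in H2O2 (-0.29 ± 0.08, adjusted p = 0.00814). From ShNC to YH the value was 0.21 ± 0.08 (adjusted p = 0.0508), and it was 0.30 without both libraries of high mitochondrial share (adjusted p = 5.97e-05; 0.00887 without ShNC replicate 4 alone and 0.0193 without YH replicate 3 alone). BLM, which dissolves joined chromosomes with topoisomerase 3A, stood at 17.4, 16.9, 16.8 and 20.7 CPM in the ShNC libraries, 21.1, 21.4, 21.7 and 22.6 in the H2O2 libraries and 17.6, 16.3, 23.4 and 18.6 in the YH libraries. Its H2O2 libraries lay above ShNC, but ShNC replicate 4 and YH replicate 3 came close to or passed them. The rise with H2O2, 0.27 ± 0.11 (edgeR adjusted p = 0.0452), was lost in 9 of the 12 fits that left out 1 library (adjusted p up to 0.119). The 3 that kept it were those without ShNC replicate 4, YH replicate 2 or YH replicate 3. From H2O2 to YH it was -0.19 ± 0.11 (adjusted p = 0.153), and 0.00802 was the adjusted p without YH replicate 3.

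In the BRCA1 and BRCA2 complexes, 1 of 5 rose with H2O2, 3 were lower in YH than in H2O2 and 4 were lower in YH than in ShNC. BRIP1 (ENSG00000136492, chr17:61681266-61863521), the helicase bound to BRCA1, stood at 54.6, 57.5, 54.8 and 62.6 CPM in the ShNC libraries, 57.3, 52.6, 61 and 65.1 in the H2O2 libraries and 38.9, 38.8, 44.9 and 42.9 in the YH libraries. The YH libraries were below every other library, and the ShNC and H2O2 libraries overlapped. BRIP1 was lower in YH than in H2O2 (-0.51 ± 0.08, edgeR adjusted p = 8.25e-05) and than in ShNC (-0.47 ± 0.08, adjusted p = 0.000288), with 0.04 ± 0.08 for the change with H2O2 (adjusted p = 0.711). BARD1, the partner with which BRCA1 forms a ubiquitin ligase, stood at 20.8, 21.2, 21.8 and 25.2 CPM in the ShNC libraries, 26.8, 25.4, 25.2 and 25.7 in the H2O2 libraries and 17.3, 17.6, 20.7 and 19.1 in the YH libraries. H2O2 was highest and YH lowest, without overlap, although ShNC replicate 4 nearly reached the H2O2 range. The rise with H2O2 (0.21 ± 0.08, edgeR adjusted p = 0.0446) was lost in 8 of 12 fits without 1 library (adjusted p up to 0.125), those without ShNC replicates 1, 2 or 3, any H2O2 library or YH replicate 4. The lower level in YH than in H2O2 was -0.46 ± 0.08 (edgeR adjusted p = 0.000285), and that against ShNC was -0.25 ± 0.08 (adjusted p = 0.0279; 0.0915 without YH replicate 1 and 0.0828 without YH replicate 2). Relative to chromosomal neighbours the rise with H2O2 was 0.14 (edgeR adjusted p = 0.181) and the difference between YH and ShNC -0.15 (adjusted p = 0.207), neither called.

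BRCA1 itself stood at 81.8, 79.5, 82 and 82 CPM in the ShNC libraries, 80.2, 79.995, 76.5 and 80.1 in the H2O2 libraries and 72.8, 67.6, 73.1 and 71.3 in the YH libraries. The YH libraries lay below the rest by a small step. The log2 values were -0.04 ± 0.05 with H2O2 (edgeR adjusted p = 0.582), -0.15 ± 0.05 from H2O2 to YH (adjusted p = 0.0272) and -0.19 ± 0.05 from ShNC to YH (adjusted p = 0.0106). The call between YH and H2O2 was lost without H2O2 replicate 1, 2 or 4 or without YH replicate 2 or 4 (adjusted p 0.0552 to 0.0879). BRCA2, which prepares the trimmed strand for pairing, stood at 27.5, 29.2, 28 and 36.6 CPM in the ShNC libraries, 26.9, 26.1, 25.3 and 25.8 in the H2O2 libraries and 23.3, 21.9, 27.9 and 23.3 in the YH libraries. ShNC replicate 4 was the highest and YH replicate 3 reached the ShNC range. BRCA2 was lower in YH than in ShNC (-0.33 ± 0.10, edgeR adjusted p = 0.0157; 0.0560 without YH replicate 2), with -0.22 ± 0.10 for the change with H2O2 (adjusted p = 0.0758; 0.0385 without YH replicate 3). PALB2, the bridge between BRCA1 and BRCA2, held 24.7 ± 2.18, 23.8 ± 0.827 and 23.3 ± 1.78 CPM and passed no test, with log2 values of -0.06, -0.03 and -0.09.

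Among the 6 genes that aid strand pairing and exchange (RAD51C, XRCC2, XRCC3, RAD51AP1, RAD54L and RAD54B) 2 fell with H2O2, 2 were lower in YH than in H2O2 and 3 were lower in YH than in ShNC, and 0 were called higher in any of the 3 comparisons, by edgeR, by DESeq2 or at an unadjusted p under 0.05. XRCC2 (ENSG00000196584, chr7:152644779-152676165), which supports strand pairing, stood at 50.04, 49.6, 46.1 and 56 CPM in the ShNC libraries, 44.4, 46, 41.2 and 44.5 in the H2O2 libraries and 35.7, 36.1, 39.9 and 33.2 in the YH libraries. The groups stepped down from ShNC to H2O2 to YH without overlap, though the first gap was narrow. XRCC2 was lower in YH than in H2O2 (-0.28 ± 0.08, edgeR adjusted p = 0.00691) and than in ShNC (-0.48 ± 0.08, adjusted p = 0.000176). The fall with H2O2 (-0.20 ± 0.08, edgeR adjusted p = 0.0438) was lost in 9 of 12 fits without 1 library (adjusted p up to 0.128), and kept without ShNC replicate 3, YH replicate 3 or YH replicate 4. RAD51AP1 (ENSG00000111247, chr12:4538798-4560048), which aids the joining of strands, stood at 50.01, 48.3, 48.5 and 43.2 CPM in the ShNC libraries, 46.4, 45.9, 43.9 and 46.6 in the H2O2 libraries and 39.9, 34, 28.7 and 38.9 in the YH libraries. The YH libraries were below all others, with YH replicate 3 the lowest. Its log2 values were -0.37 ± 0.09 against H2O2 (edgeR adjusted p = 0.00397), -0.42 ± 0.09 against ShNC (adjusted p = 0.00210) and -0.06 ± 0.09 for H2O2 against ShNC (adjusted p = 0.644).

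RAD54B, a DNA translocase and one of the uncertain genes, stood at 9.12, 9.1, 9.0 and 10.8 CPM in the ShNC libraries, 7.21, 7.38, 7.89 and 8.47 in the H2O2 libraries and 7.1, 7.16, 6.81 and 7.04 in the YH libraries. The 3 groups were separate, with YH lowest. It fell with H2O2 (-0.30 ± 0.10, edgeR adjusted p = 0.0178; 0.0610 without H2O2 replicate 1 and 0.0552 without H2O2 replicate 2) and was lower in YH than in ShNC (-0.44 ± 0.10, adjusted p = 0.00241). From H2O2 to YH the value was -0.14 ± 0.10 (adjusted p = 0.265). Its relative RAD54L held 29.5 ± 1.38, 27 ± 2.24 and 26.4 ± 1.07 CPM and RAD51C held 34.8 ± 6.67, 32 ± 0.903 and 29.8 ± 2.35 CPM, neither called, with RAD51C at 44.7 CPM in ShNC replicate 4 against at most 32.3 in the other ShNC libraries. XRCC3, the partner of RAD51C, held 23.8 ± 5.48, 28.1 ± 1.36 and 22.5 ± 0.979 CPM and was not called, with -0.32 ± 0.13 from H2O2 to YH (edgeR adjusted p = 0.0589). Without ShNC replicate 4, where it stood at 16.0 CPM, that difference was called (adjusted p = 0.000596), as was the one against ShNC (0.0118).

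In the Fanconi core complex FANCE and FANCC rose with H2O2, while FANCL, FANCA and the E2 enzyme UBE2T fell. The fall of FANCA was not kept relative to its chromosomal neighbours. That made 2 higher and 3 lower of 9 (22.2% and 33.3%), against 23.9% and 22.6% of all tested genes. In YH 1 was higher and 5 lower than in H2O2, and 1 was higher and 4 lower than in ShNC. FANCE (ENSG00000112039, chr6:35452356-35467103), the subunit that contacts FANCD2, stood at 15.4, 14.8, 15.2 and 10.4 CPM in the ShNC libraries, 21.5, 21.8, 25.1 and 23.9 in the H2O2 libraries and 29.2, 28.1, 20.7 and 30.9 in the YH libraries. All ShNC libraries lay below all others, and H2O2 and YH overlapped only through YH replicate 3. FANCE rose 1.66-fold with H2O2 (0.73 ± 0.13, edgeR adjusted p = 0.000345) and was 1.96-fold higher in YH than in ShNC (0.97 ± 0.13, adjusted p = 5.1e-05), the largest change of any of the 37 in the fit with all 12 libraries. Between YH and H2O2 it was 0.24 ± 0.13 (adjusted p = 0.160; 0.0209 without YH replicate 3). Without both libraries of high mitochondrial share the values were 0.60 with H2O2, 0.35 from H2O2 to YH and 0.96 from ShNC to YH, all called.

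FANCL (ENSG00000115392, chr2:58159243-58241372), the ubiquitin ligase subunit that marks FANCD2 and FANCI, stood at 38.7, 37.2, 41.1 and 40.6 CPM in the ShNC libraries, 33, 34.7, 31.6 and 33.6 in the H2O2 libraries and 24.5, 22.1, 20.3 and 24.7 in the YH libraries. The 3 groups stepped down without overlap, from ShNC to H2O2 to YH. FANCL fell with H2O2 (-0.24 ± 0.07, edgeR adjusted p = 0.0126), and was lower in YH than in H2O2 (-0.54 ± 0.07, adjusted p = 3.05e-05) and than in ShNC (-0.78 ± 0.07, adjusted p = 1.27e-06). UBE2T (ENSG00000077152, chr1:202331657-202341980), the E2 enzyme that works with FANCL, stood at 57.7, 57.5, 56.8 and 67.2 CPM in the ShNC libraries, 42.4, 39.6, 40.5 and 37.9 in the H2O2 libraries and 47.2, 42.8, 55.5 and 49.3 in the YH libraries. ShNC was highest and H2O2 lowest, again without overlap, with ShNC replicate 4 well above its group. UBE2T fell with H2O2 (-0.58 ± 0.08, edgeR adjusted p = 3.23e-05; neighbours -0.31) and was lower in YH than in ShNC (-0.30 ± 0.08, adjusted p = 0.0119). It was higher in YH than in H2O2 (0.28 ± 0.08, edgeR adjusted p = 0.0125), but its neighbours had a median of 0.28 there, and relative to them the value was 0.04 (adjusted p = 0.713).

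FANCC, which binds FANCE, stood at 41.9, 37.1, 38 and 30.3 CPM in the ShNC libraries, 46.8, 47.2, 43.8 and 47.7 in the H2O2 libraries and 38.8, 37.3, 33.5 and 40.9 in the YH libraries. The H2O2 libraries lay above all others, and ShNC replicate 4 was the lowest. FANCC rose with H2O2 (0.33 ± 0.09, edgeR adjusted p = 0.00665) and was lower in YH than in H2O2 (-0.30 ± 0.09, adjusted p = 0.0137; -0.22 relative to neighbours, adjusted p = 0.0879), with 0.03 ± 0.09 between YH and ShNC. FANCA, a scaffold subunit among the uncertain genes, held 57.5 ± 3.51, 50.5 ± 3.42 and 43.9 ± 1.13 CPM in ShNC, H2O2 and YH and was lower in YH than in ShNC (-0.39 ± 0.07, edgeR adjusted p = 0.000345). Its fall with H2O2 (-0.19 ± 0.07, adjusted p = 0.0308) was lost without ShNC replicate 1 or 2 or H2O2 replicate 3 or 4 (adjusted p up to 0.108) and turned to 0.08 relative to its neighbours (adjusted p = 0.355). The step from H2O2 to YH (-0.20 ± 0.07, edgeR adjusted p = 0.0224) was lost without H2O2 replicate 1 or 2 or YH replicate 2 or 4 (adjusted p up to 0.0789).

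FANCM, the translocase that brings the core complex to DNA, stood at 14.6, 16.1, 15 and 15.2 CPM in the ShNC libraries, 15.3, 14.9, 17.3 and 17.6 in the H2O2 libraries and 12.4, 12.7, 12.2 and 13 in the YH libraries. The YH libraries were below every other library. It was lower in YH than in H2O2 (-0.38 ± 0.08, edgeR adjusted p = 0.00127) and than in ShNC (-0.28 ± 0.08, adjusted p = 0.0139), but its neighbours had a median of -0.37 in the first of these, and relative to neighbours the values were -0.04 and -0.13, neither called (adjusted p = 0.730 and 0.253). FANCB, a core subunit encoded on the X chromosome, held 15.6 ± 0.366, 17.6 ± 0.781 and 15.1 ± 1.5 CPM and was lower in YH than in H2O2 (-0.23 ± 0.08, edgeR adjusted p = 0.0369). That call was lost without H2O2 replicate 1, 2 or 4 or YH replicate 3 or 4 (adjusted p up to 0.107). FANCF held 13.7 ± 1.37, 12.6 ± 1.04 and 13.2 ± 1.41 CPM and FANCG held 33.4 ± 4.17, 32.6 ± 0.395 and 31.1 ± 0.964 CPM; these adaptor subunits passed no test with all libraries, and FANCG was lower in YH than in ShNC without ShNC replicate 4 (edgeR adjusted p = 0.00758).

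Of the pair that the core complex marks, edgeR called 0 of 2 with H2O2 (DESeq2 1, and 1 at an unadjusted p under 0.05), 1 lower in YH than in H2O2 and both lower in YH than in ShNC. FANCI, with its partner FANCD2 the clamp of the pathway, stood at 112, 114, 113 and 101 CPM in the ShNC libraries, 105, 107, 102 and 106 in the H2O2 libraries and 95.9, 87.2, 85.8 and 91.3 in the YH libraries. The YH libraries were the lowest, below even ShNC replicate 4. FANCI was lower in YH than in H2O2 (-0.22 ± 0.06, edgeR adjusted p = 0.00659; -0.11 relative to neighbours, adjusted p = 0.147) and than in ShNC (-0.29 ± 0.06, adjusted p = 0.00137), with -0.07 ± 0.06 for the change with H2O2. FANCD2 (ENSG00000144554, chr3:10026414-10101930) stood at 44.7, 43.8, 42.3 and 48 CPM in the ShNC libraries, 41.3, 41.8, 38.4 and 39.5 in the H2O2 libraries and 38.5, 40.4, 40.2 and 38.2 in the YH libraries. ShNC was above the rest, and H2O2 and YH overlapped. FANCD2 was lower in YH than in ShNC (-0.19 ± 0.06, edgeR adjusted p = 0.0322), a call that was lost without ShNC replicate 1 or YH replicate 1 or 4 (adjusted p up to 0.0856). With H2O2 the value was -0.15 ± 0.06 (adjusted p = 0.0592), and it was called without ShNC replicate 3 (0.0498) or YH replicate 3 (0.0367).

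The nuclease subunits serve enzymes that cut branched and cross-linked DNA, and 1 of 2 fell with H2O2. In YH edgeR and DESeq2 called 0 of 2 against either group, and at an unadjusted p under 0.05 there were 0 against H2O2 and 1 against ShNC. SLX4, the scaffold for several nucleases, stood at 20.4, 20.6, 19.3 and 16.3 CPM in the ShNC libraries, 15.2, 17.4, 14.6 and 13.7 in the H2O2 libraries and 16.8, 16, 18.4 and 14.3 in the YH libraries. The ranges of all 3 groups overlapped. SLX4 fell with H2O2 (-0.33 ± 0.10, edgeR adjusted p = 0.0167; 0.0627 without H2O2 replicate 4), with 0.11 ± 0.10 from H2O2 to YH and -0.22 ± 0.10 from ShNC to YH (adjusted p = 0.115). The last was called without ShNC replicate 4 (0.0199) or YH replicate 3 (0.0474). EME1, the partner of MUS81, stood at 18.7, 17.2, 18.7 and 18.5 CPM in the ShNC libraries, 17.3, 17.4, 14.6 and 19.2 in the H2O2 libraries and 17.5, 17.3, 19.5 and 16.6 in the YH libraries. The groups overlapped throughout, and its log2 values of -0.09 ± 0.09, 0.05 ± 0.09 and -0.04 ± 0.09 passed no test.

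Read across the 3 comparisons, 10 of the 37 genes were not called with all 12 libraries: RAD50, NBN, PALB2, RAD51C, XRCC3, RAD54L, FANCF, FANCG, EME1 and CHEK1. Another 6 (BRCA1, BRIP1, RAD51AP1, FANCM, FANCI and H2AX) were called lower in YH against both other groups and not called between H2O2 and ShNC. XRCC2, FANCA and FANCL were called lower in all 3 comparisons. RBBP8, EXO1, ATR and CHEK2 were lower with H2O2, higher in YH than in H2O2 and not called between YH and ShNC, UBE2T and TOPBP1 did likewise but stayed lower in YH than in ShNC, and the reverse of the former pattern held for WRN, FANCC and ATM. For ATR and TOPBP1 these directions are not kept relative to chromosomal neighbours, and neither is the fall of FANCA with H2O2. EXO1, UBE2T, FANCC, BRCA1, FANCM and FANCI lose their call between YH and H2O2 relative to neighbours, so their patterns depend on that step too. Between neighbouring patterns the step that decides the class is often near the threshold, as the fits without 1 library show.

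**Figure D4:**
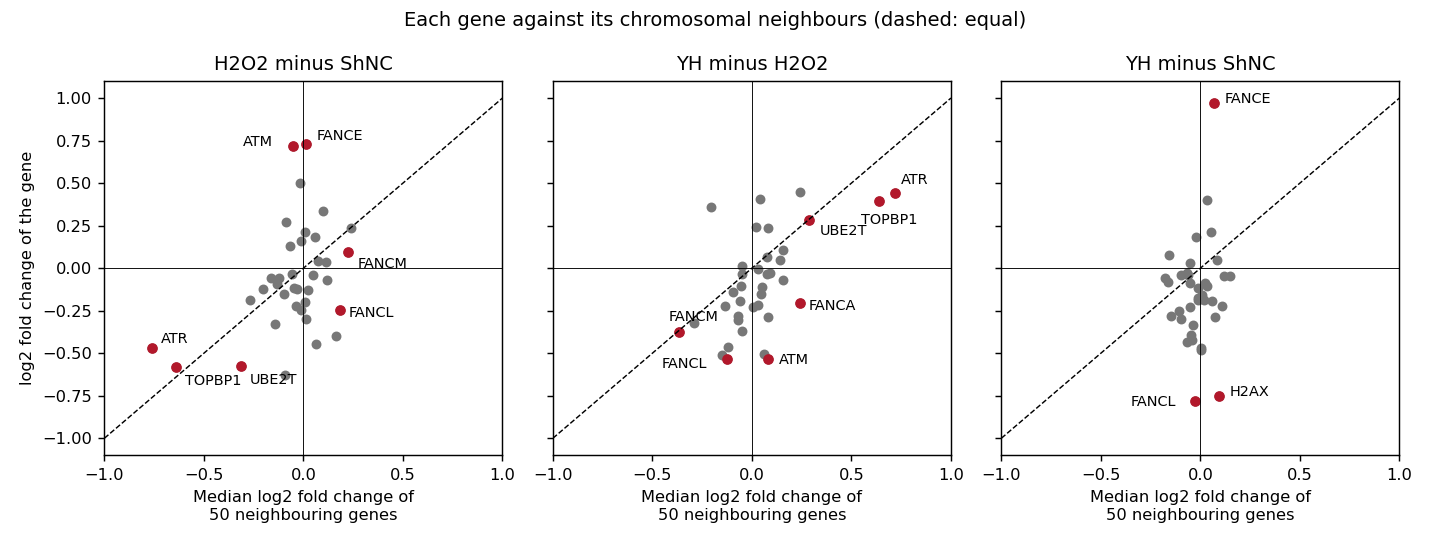
log2 fold change of each of the 37 genes (vertical axis) against the median log2 fold change of the 50 tested genes nearest to it on its chromosome (horizontal axis), in the 3 comparisons. ATR and TOPBP1 lie far from 0 on the horizontal axis in the left and middle panels and near 0 in the right one, UBE2T and FANCM lie close to that line in the middle panel, and ATM, FANCE and FANCL lie away from it.

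The median of the neighbours lay beyond 0.3 in either direction for 3 of the 37 genes with H2O2, for 3 between YH and H2O2, and for 0 between YH and ShNC. With the neighbours' median removed in each library, 7 of the 37 were higher and 11 lower with H2O2 (43.4% of all tested genes called), 2 higher and 14 lower in YH than in H2O2 (39.5%), and 2 higher and 17 lower in YH than in ShNC (33.4%). That step ended 3, 6 and 2 of the calls and added 4, 1 and 5. The calls it ended were BARD1, FANCA and TOPBP1 with H2O2, EXO1, BRCA1 (-0.16, edgeR adjusted p = 0.0593), FANCC, FANCM, UBE2T and FANCI from H2O2 to YH, and BARD1 and FANCM from ShNC to YH. It added MRE11 (0.23), NBN (-0.15), RAD54L (-0.21) and FANCI (-0.22) with H2O2 and FANCG (-0.24) from H2O2 to YH. From ShNC to YH it added NBN (-0.17), RAD54L (-0.23), FANCG (-0.21), SLX4 (-0.27) and ATM (0.18). The changes of ATM (0.78 with H2O2 and -0.60 from H2O2 to YH) and of FANCE (0.70 and, from ShNC to YH, 0.94) were about as large as without that step. FANCL was -0.45 with H2O2, -0.35 from H2O2 to YH and -0.81 from ShNC to YH, all called. What moves blocks of neighbouring genes together was not tested.

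**Figure D5:**
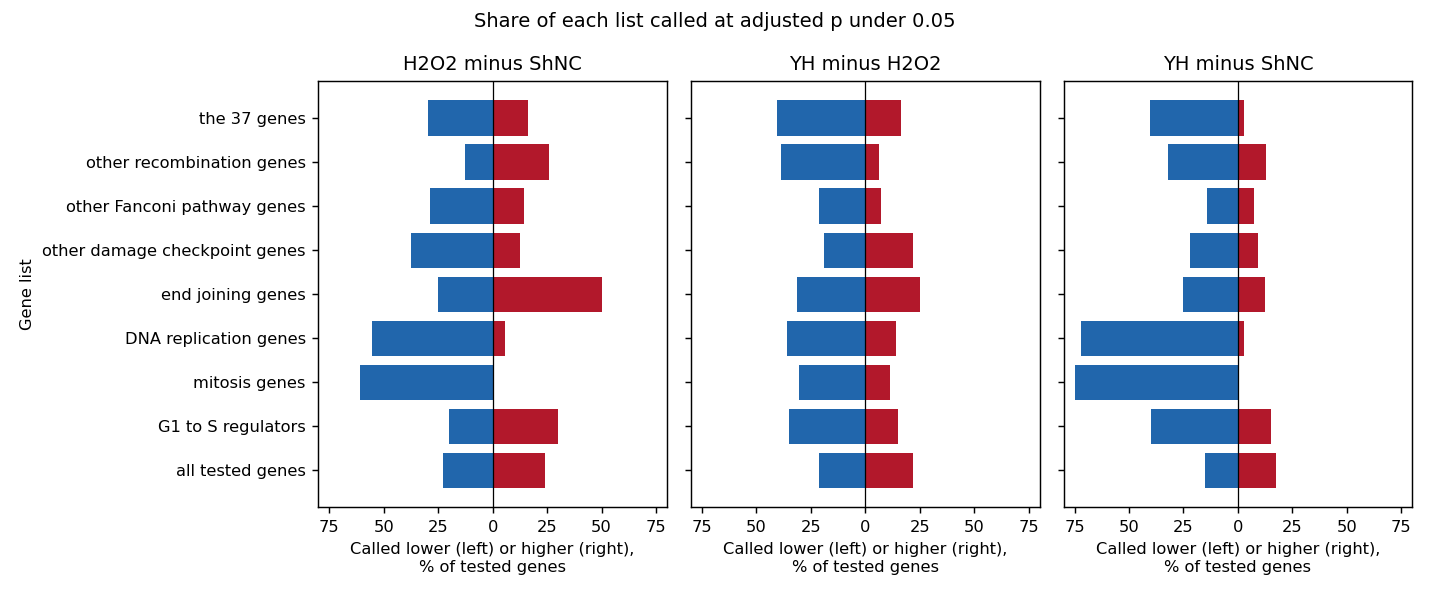
Percent of each gene list called lower (bars to the left) or higher (bars to the right) at an adjusted p under 0.05 in each comparison, for the 37 genes, 7 other lists and all tested genes. Of the mitosis genes 61.1% were called lower with H2O2 and 75% between YH and ShNC, and of the DNA replication genes 55.6% and 72.2%.

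The other genes of these pathways were taken from lists, with 185 of 186 names matched. Of all tested genes 46.6% were called with H2O2, 43.0% between YH and H2O2 and 32.5% between YH and ShNC. Of 31 other recombination genes, 8 rose and 4 fell with H2O2 (median 0.09), 2 were higher and 12 lower in YH than in H2O2 (median -0.18), and 4 were higher and 10 lower in YH than in ShNC (median -0.17). In the same order 38.7%, 45.2% and 45.2% of them were called. SWI5, which supports strand exchange, had 19.4 ± 2.26, 40.5 ± 2.8 and 24.5 ± 1.17 CPM in ShNC, H2O2 and YH, a rise of 1.06 ± 0.09 with H2O2 (edgeR adjusted p = 8.41e-08). RPA1, the large subunit that coats single strands, had 215 ± 18.5, 167 ± 7.91 and 145 ± 11.5 CPM and was lower in YH than in ShNC (-0.57 ± 0.07, edgeR adjusted p = 2.96e-05), as was RMI1, the partner of BLM (-0.68 ± 0.09, adjusted p = 3.87e-05). MUS81, the nuclease that EME1 serves, was higher in YH than in ShNC (0.49 ± 0.09, edgeR adjusted p = 0.000391). Of 14 other Fanconi genes, 2 rose and 4 fell with H2O2, 1 was higher and 3 lower in YH than in H2O2, and 1 was higher and 2 lower in YH than in ShNC. These were 42.9%, 28.6% and 21.4% of the list, each below the share of all tested genes. ERCC1, with XPF the nuclease that unhooks cross-links, rose with H2O2 (0.47 ± 0.07, edgeR adjusted p = 3.31e-05) and was lower in YH (-0.33 ± 0.07, adjusted p = 0.000976).

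Of 32 other damage checkpoint genes, 4 rose and 12 fell with H2O2 (median -0.07), 7 were higher and 6 lower in YH than in H2O2, and 3 were higher and 7 lower in YH than in ShNC. In all 50%, 40.6% and 31.25% of them were called, against 46.6%, 43.0% and 32.5% of all tested genes. HUS1, a part of the clamp that is loaded beside ATR, had 24.5 ± 3.58, 19.2 ± 2.38 and 38.5 ± 3.35 CPM and was higher in YH than in H2O2 (1.01 ± 0.11, edgeR adjusted p = 2.57e-06). ETAA1, the other activator of ATR, had 34.4 ± 5.72, 33.2 ± 3.68 and 22.2 ± 1.29 CPM and was lower in YH than in H2O2 (-0.58 ± 0.11, adjusted p = 0.000419). TIPIN, a fork protein needed for CHEK1 activation, fell with H2O2 (-0.58 ± 0.08, edgeR adjusted p = 3.38e-05). End joining is the route that seals breaks without a template. Of its 16 genes 8 rose and 4 fell with H2O2, 4 were higher and 5 lower in YH than in H2O2, and 2 were higher and 4 lower in YH than in ShNC. The shares called were 75%, 56.25% and 37.5%. PARP1, which senses strand breaks, had 437 ± 45.4, 236 ± 10.2 and 296 ± 13.7 CPM, a fall of 0.89 ± 0.07 with H2O2 (edgeR adjusted p = 7.87e-08), and POLM, a gap-filling polymerase, rose by 0.78 ± 0.08 (adjusted p = 1.2e-06).

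Genes of cell division are given beside the 37, and the shares called differed. With H2O2 61.1% of the mitosis and 55.6% of the replication genes were called lower, against 29.7% of the 37 and 22.6% of all tested genes. Between YH and ShNC these shares were 75%, 72.2%, 40.5% and 15.1%. From H2O2 to YH they were 30.6%, 36.1%, 40.5% and 21.0%. Of 36 mitosis genes 0 rose and 22 fell with H2O2 (median -0.29), 4 were higher and 11 lower in YH than in H2O2 (median -0.04), and 0 were higher and 27 lower in YH than in ShNC (median -0.41). Neither DESeq2 nor an unadjusted p under 0.05 added a mitosis gene to either count of 0. Of 36 DNA replication genes the counts were 2 and 20 (median -0.23), 5 and 13 (median -0.13), and 1 and 26 (median -0.37). Their summed levels were 5128 to 5618 CPM in ShNC, 4119 to 4188 in H2O2 and 4002 to 4454 in YH for the mitosis list, and 3736 to 4096, 3190.0 to 3449 and 2840 to 3203 for the replication list. Of 20 regulators of the G1 to S step 6 rose and 4 fell with H2O2, 3 were higher and 7 lower in YH than in H2O2, and 3 were higher and 8 lower in YH than in ShNC. That was 50%, 50% and 55% called, against 46.6%, 43.0% and 32.5% of all tested genes. CCND1, the cyclin of early G1, had 19.7 ± 0.401, 124 ± 3.81 and 29.9 ± 3.06 CPM, a change of 2.65 ± 0.07 with H2O2 (edgeR adjusted p = 4.41e-13) and -2.05 ± 0.07 from H2O2 to YH (adjusted p = 1.37e-11). The part of cell division in the levels of the 37 genes was not tested.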

How the data were processed

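RNA was measured in 12 libraries of HK-2 cells, 4 per group. The authors deposited 1 table of raw counts per library, whole numbers per Ensembl gene, neither scaled nor pooled over replicates. Per the submitters' processing notes, HISAT2, Subread, featureCounts and DESeq2 were used with GRCh38 (hg38). No version, annotation release or strand setting was given there. Genes sharing over 20% of their exon bases with another gene (GENCODE, GRCh38) are therefore called uncertain.

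The 37 members and all gene lists were chosen with earlier results of these data known. Symbols were matched to identifiers with the table of gene names. With edgeR 4.0.16 (R 4.3.3), genes were filtered with filterByExpr, libraries scaled with TMM, and all 12 libraries entered 1 robust quasi-likelihood fit with a mean for each group (common dispersion 0.0163). Genes were called at a Benjamini-Hochberg adjusted p under 0.05 over 19268 genes. The procedure was run on simulated counts in which few genes changed, in 1 group only, and libraries were independent. These settings are unlike the data, so that run gives no error rates for them. The SE of a log2 fold change was taken from its F statistic. Neighbour medians use 25 tested genes on each side. Replicates differed by more than sampling noise (chi-square per degree of freedom 2.85 or more), so each library counted as 1. Replicate pairs that held ShNC replicate 4 or YH replicate 3 gave 95.8 to 159, and all other pairs at most 6.39. Floors cover counting error only. Same-numbered libraries did not deviate together (r -0.208 to 0.0932 over 12 pairs), so the main fit did not pair them by number. Such correlations cannot show whether the numbers marked a pairing in the experiment. ShNC replicate 4 and YH replicate 3 did deviate together (r 0.361, the highest of any pair across groups). The fit with all libraries treats them as independent, and what they share was not tested. Alternatives were other normalisations and filters, DESeq2 1.42.0, a fit of 2 groups, the replicate block, counts without mitochondrial genes, a local offset, and fits without libraries. All 37 members are named. Values in every library were given for the called members that rose or fell most (at most 2 each way) in each role group and comparison, for role groups of 2 genes, and for a few added members. MRE11 and FANCA also met that rule but were given as mean ± SD. Genes outside the 37 were named from those called with the largest rise or fall in each list, at a mean of 1 CPM or more.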

Additional observations from a re-analysis of the deposited data

Results flagged for a closer look

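Within each group of 4 libraries, 1 library stood far from the other 3 for 16 of the 111 combinations of gene and group, by the gap to the nearest library over the range of the group (above Dixon's 95% critical value). Chance flags about 1 group in 20. In ShNC replicate 4, whose mitochondrial share was 13.9%, EXO1 stood at 40.9 CPM (others at most 31.2), BLM at 20.7, RAD51C at 44.7, RAD54B at 10.8, UBE2T at 67.2 and TOPBP1 at 180.2, all above the other ShNC libraries. In the same library FANCE stood at 10.4, FANCG at 27.2, FANCI at 101.3 and H2AX at 51.6, all below the others. In YH replicate 3, with a mitochondrial share of 11.3%, H2AX stood at 51.5 (others at most 35.2) and FANCF at 11.1 (others at least 13.8).

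The remaining flags were small in size. BRCA1 stood at 79.5 in ShNC replicate 2 (others at least 81.8) and at 76.5 in H2O2 replicate 3 (others at least 79.995). EME1 stood at 17.2 in ShNC replicate 2, and EXO1 at 22.8 in H2O2 replicate 1 (others at most 21.1). What sets these libraries apart was not tested.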

How the results depend on the processing

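Over 22 alternatives, 8 of the 17 genes called with H2O2, 11 of the 21 called between YH and H2O2 and 10 of the 16 called between YH and ShNC kept both call and direction in each alternative, and 11 of 20, 10 of 16 and 12 of 21 that were not called stayed uncalled in each. Of 1188 values of called genes, 1079 kept call and direction, 104 lost the call and 5 turned direction. Of 1254 values of genes that were not called, 65 gained the call and 55 turned direction without a call. The 5 turns of called genes came with the local offset: ATR (0.32, adjusted p = 0.00375) and TOPBP1 (0.028, 0.740) and FANCA (0.084, 0.355) with H2O2, and ATR (-0.21, 0.0424) and TOPBP1 (-0.23, 0.00518) from H2O2 to YH. The cause was not tested.

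With library sizes alone, 6 genes fell with H2O2 at a median of -0.0078 (0.0874 over all tested genes, so the members still stood lower), the median from H2O2 to YH was -0.18 (-0.0655 over all tested genes), and 3 were higher in YH than in ShNC. DESeq2's Wald test gave 2 higher in YH than in ShNC. Without both libraries of high mitochondrial share, 17 fell with H2O2, the median from H2O2 to YH was -0.15, and 3 were higher in YH than in ShNC. With the local offset the median with H2O2 was -0.054, 2 were higher in YH than in H2O2 at a median of -0.14, and 2 were higher in YH than in ShNC. The cause was not tested. Medians varied between libraries of a group with an SD of 0.023.

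Leaving out 1 library at a time, the median ranged from -0.12 to -0.072 with H2O2, from -0.14 to -0.080 between YH and H2O2 and from -0.19 to -0.13 between YH and ShNC, and the genes higher in YH than in ShNC ranged from 1 to 4 (4 without ShNC replicate 4, 3 without YH replicate 3, 2 without YH replicate 1). With the replicate block, 5 genes rose and 10 fell with H2O2, 6 were higher and 16 lower in YH than in H2O2, and 1 was higher and 13 lower in YH than in ShNC, with 8536, 7798 and 5731 genes called over all against 8971, 8288 and 6265 without it. Of the 12 libraries, 1 correlated best with a same-numbered one. Small differences of genes with few counts, such as RAD50 at about 3 CPM, are limited by depth, and the number of libraries limits the rest.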
